A study of Trichoderma reesei with 17 samples.

Results

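The loss of the transcription factor XYR1 was examined in Trichoderma reesei growing on cellulose. The 3 Δxyr1 cellulose libraries were compared with the 3 QM9414 cellulose libraries, which are 6 of the 17 RNA-seq libraries used. Of the 9129 genes in the count table, 414 carbohydrate-active enzymes (CAZymes) and 77 transporters that the study lists were set apart, and the other 8638 genes were described by the function that the annotation gives them. Of these 8638 genes, 8024 had at least 10 counts in at least 2 libraries and were tested.

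QM9414 is a cellulase-producing mutant strain that served as the parental strain, and Δxyr1 is a strain in which xyr1 was deleted. Both strains were shaken at 28°C and 200 rpm in Mandels-Andreotti medium with 1% cellulose (Avicel) as carbon source. The RNA of each QM9414 replicate was pooled over 24, 48 and 72 h of culture, and that of each Δxyr1 replicate over 8 and 24 h. According to the methods of the study, Δxyr1 was first grown for 24 h in 1% glycerol and then moved to cellulose, whereas the deposited description gives the glycerol step for sophorose. The effect of the deletion, the culture time and any glycerol step cannot be told apart in these 6 libraries. In sophorose (1 mM) both strains were sampled at 2, 4 and 6 h, so the strain effect in sophorose was used as a comparison in which the times match. Glucose (2%) cultures of both strains were sampled at 24 and 48 h. The 3 libraries of each cellulose group are biological replicates according to the labels. All 17 libraries were fitted together, so p-values and standard errors rest on the spread between replicates pooled over all 6 groups.

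XYR1 is a Zn2Cys6 zinc cluster protein and is known as the main activator of cellulase and xylanase genes in T. reesei. A fungus that secretes large amounts of enzyme also needs amino acids, cysteine for disulfide bonds, and chaperones of the endoplasmic reticulum. Filamentous fungi take up sulfate, activate it with ATP, reduce it to sulfite and then to sulfide, and build sulfide into cysteine and methionine; when sulfur is short they also break down taurine and other sulfonates. They break down their own proteins by autophagy, and they carry many genes with heterokaryon incompatibility (HET), ankyrin or NACHT domains, families known from self and non-self recognition between hyphae.

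Counts were scaled by TMM factors and are given as CPM, a level relative to the total of each library, for each of replicates 1, 2 and 3 in that order. Values written with ± are log2 fold changes of Δxyr1 over QM9414 with their standard error. Genes are named by their RefSeq locus tags, whose numbers are the protein IDs of the count table and label the plots. The words lower, higher and called are used for a change of at least 2-fold whose adjusted p did not exceed 0.05 in edgeR's quasi-likelihood test, with Benjamini-Hochberg adjustment over all 8506 genes tested. Over all 8506 genes, 10.3% were called lower and 8.29% higher in Δxyr1, and the median log2 fold change was -0.018. These shares are the background for the counts of each functional group.

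The xyr1 gene (TRIREDRAFT_122208) was counted at 534, 654 and 677 CPM in QM9414 and 14.7, 9.55 and 8.39 CPM in Δxyr1. The transcript was therefore lower in the mutant by 57.4-fold (-5.84 ± 0.45, adjusted p = 7.85e-08), although 124, 139 and 103 counts remained in the 3 mutant libraries. In sophorose, xyr1 was counted at 2252, 2883 and 2546 CPM in QM9414 and 83.6, 81.5 and 93.7 CPM in Δxyr1. The study reported that coverage of xyr1 was absent in the mutant in every condition. The source of the remaining counts was not tested. Total counts lay between 12168145 and 19628491 in the QM9414 cellulose libraries and between 7014100 and 11136589 in the Δxyr1 cellulose libraries. The cellulase and xylanase genes cbh1, cbh2, egl1 and xyn2 (TRIREDRAFT_123989, TRIREDRAFT_72567, TRIREDRAFT_122081 and TRIREDRAFT_123818), which mark induction, had log2 fold changes of -8.76, -9.06, -7.20 and -8.94. QM9414 cellulose replicate 1 stood apart from the other 2. In 24 genes that were abundant in every glucose library and at least 20 times lower in the other 5 cellulose libraries, replicate 1 lay above the mean of the other QM9414 libraries by a median of 18.3% of the glucose level. The genes were picked without a condition on replicate 1 but with one on the other libraries, and the same median excess was -0.31, -0.35 and 0.14% in the Δxyr1 libraries. Of the 24 genes, 23 were called lower in Δxyr1 with it and 4 without it. Without this library, 8.79% of all genes tested were called lower and 8.29% higher. Counts of each functional group are therefore also given without QM9414 replicate 1.

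Outside CAZymes and listed transporters, 744 of the 8024 genes were lower in Δxyr1 and 651 were higher. The libraries of the strains did not overlap in 702 of the lower and 633 of the higher genes, and over all genes tested they did not overlap in 30.1% in the lower and 28.97% in the higher direction. At least 16-fold changes were found for 64 lower and 23 higher genes. Without QM9414 replicate 1, 620 genes were lower and 650 higher. The share of higher genes among all calls was 44.5% with TMM factors and 57.6% without scaling factors, which moved the median over all genes from -0.018 to 0.178. In RNA of whole cultures, fewer hyphae of a given state and less RNA per hypha cannot be told apart. In sophorose, 6.47% of all genes tested were lower in Δxyr1 and 10.8% higher. The strain effect in cellulose minus that in sophorose, tested as an interaction in the same fit, was below 0 for 16.8% of all genes and above 0 for 11.8%. These counts depended on the scaling, and Δxyr1 sophorose replicate 3 had a TMM factor of 0.528 against 1.03 to 1.31 in the cellulose libraries. Outside CAZymes and listed transporters the interaction was below 0 in 1312 genes and above 0 in 937, and without scaling factors in 512 and 2054. In 41 genes for which the interaction was recomputed, its sign was kept under every setting tried, but it was no longer called in 7 of 533 recomputed values, which came from 4 genes: BiP, SCON-2, aminopeptidase Y and glutamine synthetase. Among these settings only cellulose libraries were left out, so the weight of any 1 sophorose library on the interaction was not tested.

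**Figure D1:**
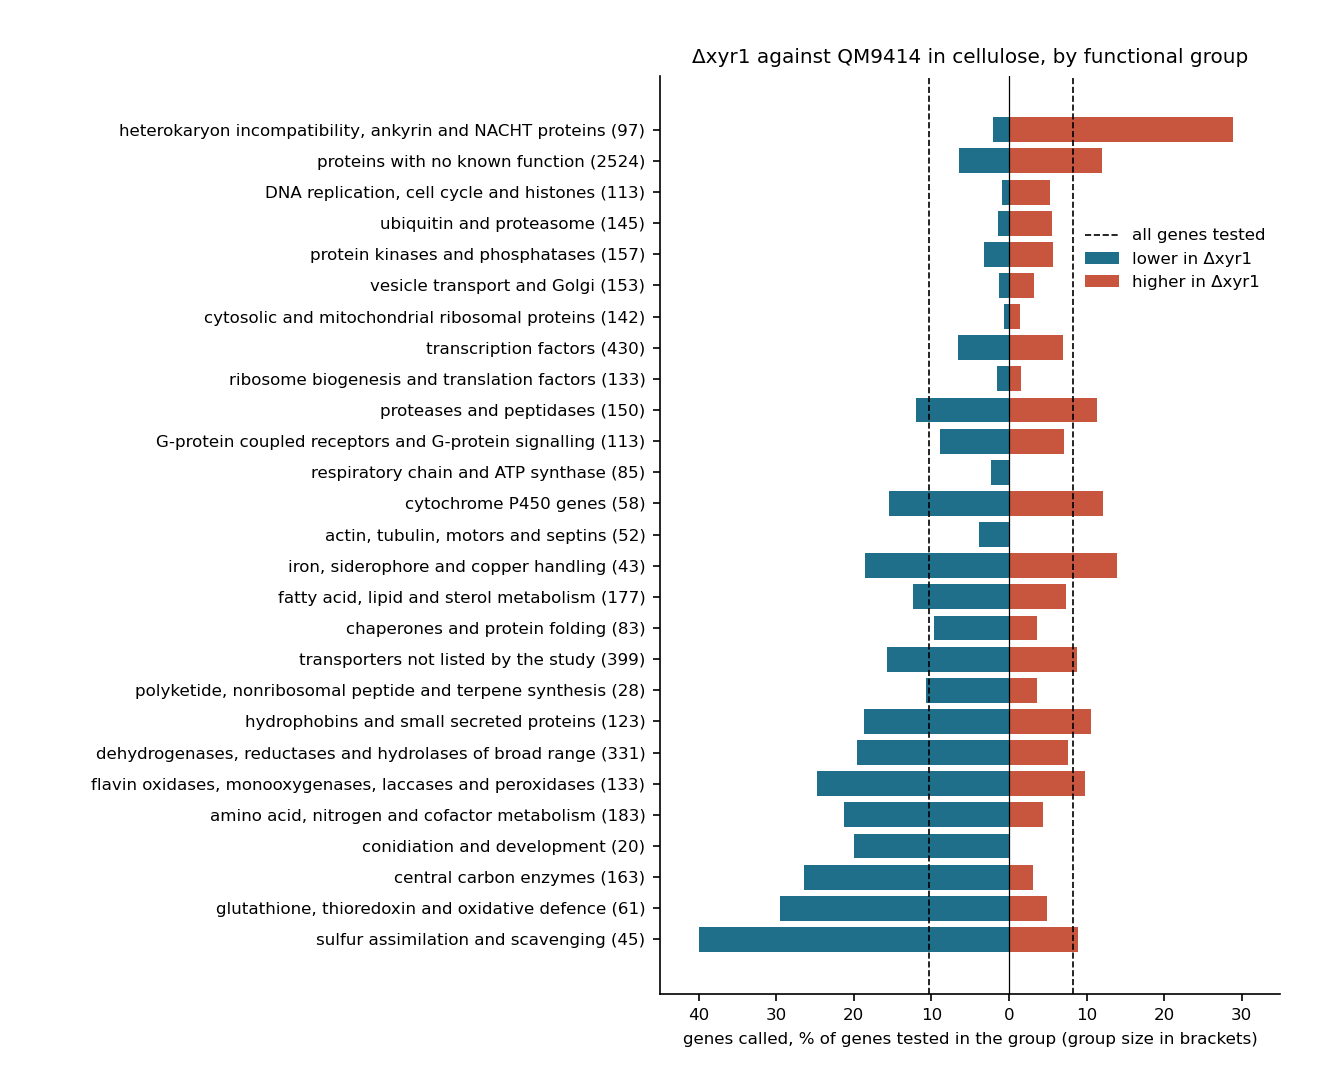
Share of the genes tested in each functional group that were called lower (blue, to the left) or higher (red, to the right) in Δxyr1 than in QM9414 in cellulose, in % of the genes tested in the group; dashed lines mark the shares over all genes, 10.3% and 8.29%. The sulfur group has the longest bar of lower genes (18 of 45) and the HET, ankyrin and NACHT group the longest bar of higher genes (28 of 97).

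Of the functional groups, the sulfur genes had the largest share of lower genes. Of the 45 genes of sulfur assimilation and scavenging, 18 were lower and 4 higher in Δxyr1, with a median log2 fold change of -0.67, and the same counts without QM9414 replicate 1 were 18 and 3. In 21 of the 45 genes, Δxyr1 in cellulose had the lowest mean of the 6 strain and carbon source groups (46.7%, against 21.1% of all genes tested). In sophorose, 8 sulfur genes were lower and 4 higher in Δxyr1, with a median of -0.19. The interaction was below 0 in 21 of the 45 genes, among them 15 of the 18 that were lower in cellulose. Over all genes tested it was below 0 for 582 of the 879 lower genes. The interaction holds the same cellulose effect by which genes were called, so most called genes fall on that side. This group and its lists of steps were drawn up after the values had been seen.

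Nearly the whole route from sulfate to sulfide was lower, with 5 of its 6 genes called and a median log2 fold change of -3.02. Sulfate adenylyltransferase (TRIREDRAFT_47066), which activates sulfate with ATP, was counted at 1016, 1043 and 939 CPM in QM9414 and 102, 115 and 112 CPM in Δxyr1. All mutant libraries lay far below the parental ones, by 9.11-fold on average (-3.19 ± 0.19, adjusted p = 5.23e-09), whereas in sophorose the log2 fold change was -0.92. The next enzyme, adenosine 5'-phosphosulfate kinase (TRIREDRAFT_75704), was lower, at -2.64 ± 0.22 (adjusted p = 1.75e-07). Phosphoadenosine phosphosulfate (PAPS) reductase (TRIREDRAFT_65410), which releases sulfite, was counted at 229, 222 and 149 CPM in QM9414 and 24.9, 23.2 and 15.6 CPM in Δxyr1. QM9414 replicate 3 was the lowest of its group but remained well above every mutant library (-3.24 ± 0.26, adjusted p = 1.24e-07). A further gene with the same description (TRIREDRAFT_63354) was not called (0.32 ± 0.14, adjusted p = 0.0732), with 31.4, 30.9 and 27.98 CPM in QM9414 and 33.9, 37.4 and 41.1 CPM in Δxyr1.

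Sulfite reductase turns sulfite into sulfide and has 2 kinds of subunit. The alpha subunit (TRIREDRAFT_81576) was counted at 1662, 1724 and 1296 CPM in QM9414 and 63.7, 54.2 and 45.8 CPM in Δxyr1. It showed the largest decrease of the 6 genes, 28.6-fold (-4.84 ± 0.26, adjusted p = 1.81e-09). The beta subunit (TRIREDRAFT_45138) was counted at 2862, 3236 and 2817 CPM in QM9414 and 385, 392 and 462 CPM in Δxyr1. Its decrease was 7.19-fold (-2.85 ± 0.27, adjusted p = 6.97e-07), and neither subunit overlapped between the strains. In sophorose, the alpha subunit fell by 1.37 and the beta subunit by 1.03 on the log2 scale, and the interaction was below 0 for both (-3.46, adjusted p = 1.14e-06, and -1.82, adjusted p = 8.62e-04). In Δxyr1, the mean level of the alpha subunit was 54.6 CPM in cellulose, 275 CPM in sophorose and 1272 CPM in glucose.

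Genes that scavenge sulfur from organic compounds were lower as well. Among 7 genes for taurine and sulfonate dioxygenases and DszA-type monooxygenases, which release sulfite from organic sulfur, 5 were lower and 1 higher in cellulose, and 6 were lower in sophorose. A taurine dioxygenase (TRIREDRAFT_112567) was counted at 478, 572 and 546 CPM in QM9414 and 3.44, 2.34 and 1.96 CPM in Δxyr1. The mutant libraries held 29, 34 and 24 counts of this gene, and it was lower by 210.3-fold (-7.72 ± 0.67, adjusted p = 3.07e-07). A second gene of this family (TRIREDRAFT_103012) fell by 4.76 on the log2 scale, and the DszA-type monooxygenases (TRIREDRAFT_59876 and TRIREDRAFT_108781) had log2 fold changes of -7.64 and -3.499. The first of these rested on 0, 7 and 4 counts in the mutant libraries and was at -8.30 without Δxyr1 replicate 2. The sulfonate dioxygenase of TRIREDRAFT_30776 had 14.6, 13.9 and 11.8 CPM in QM9414 and 0, 3 and 0 counts in the mutant libraries, so its log2 fold change of -7.18 went to -10.61 without Δxyr1 replicate 2. The gene that was higher, a further TauD-type dioxygenase (TRIREDRAFT_77767), was at 1.02 ± 0.18 (adjusted p = 3.03e-04), and it was not called in 2 of the 6 fits that leave out 1 cellulose library because its fold change was then below 2.

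Single genes of later sulfur metabolism and of its control were called as well. A cystathionine lyase or synthase (TRIREDRAFT_122301), an enzyme of the exchange between cysteine and homocysteine, was lower, at -3.28 ± 0.22 (adjusted p = 1.47e-08). The S-adenosylmethionine synthetase (TRIREDRAFT_46238) was lower, at -1.69 ± 0.17 (adjusted p = 1.25e-06) and a methionine synthase (TRIREDRAFT_121820) at -1.14 ± 0.19 (adjusted p = 2.09e-04). Cysteine synthase (TRIREDRAFT_76018), which takes up the sulfide, was not called (-0.84 ± 0.19, adjusted p = 0.0022), and a further cystathionine lyase or synthase (TRIREDRAFT_69605) was higher, at low level (1.87 ± 0.36, adjusted p = 6.78e-04). The E3 ubiquitin ligase subunit SCON-2 (TRIREDRAFT_77795) is known in Neurospora crassa as the negative regulator of the sulfur network and was counted at 562, 597 and 633 CPM in QM9414 and 121, 129.9 and 178 CPM in Δxyr1. Its level was lower in all 3 mutant libraries (-2.06 ± 0.25, adjusted p = 8.43e-06). Sulfide:quinone oxidoreductase (TRIREDRAFT_76215), which oxidizes sulfide, was at -3.10 ± 0.25 in cellulose, against 0.96 in sophorose.

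Cysteine dioxygenase and a sulfite oxidase were higher. Cysteine dioxygenase (TRIREDRAFT_120176), which oxidizes cysteine to cysteine sulfinate and was counted in the oxidase group, was counted at 43.9, 38.4 and 46.98 CPM in QM9414 and 196, 129.6 and 164 CPM in Δxyr1. It was higher in each mutant library than in any parental library (1.92 ± 0.18, adjusted p = 7.88e-07). A sulfite oxidase (TRIREDRAFT_62367), which turns sulfite into sulfate, was higher, at 1.19 ± 0.17 (adjusted p = 5.10e-05). Among 7 genes for sulfate and bicarbonate transport 1 was lower and 1 higher (1 and 0 without QM9414 replicate 1), and the median log2 fold change was 0.067. The gene that was higher, a sulfate transporter (TRIREDRAFT_51217, 1.005 ± 0.16, adjusted p = 1.64e-04), fell below a 2-fold change in 4 of the 6 fits that leave out 1 library.

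**Figure D2:**
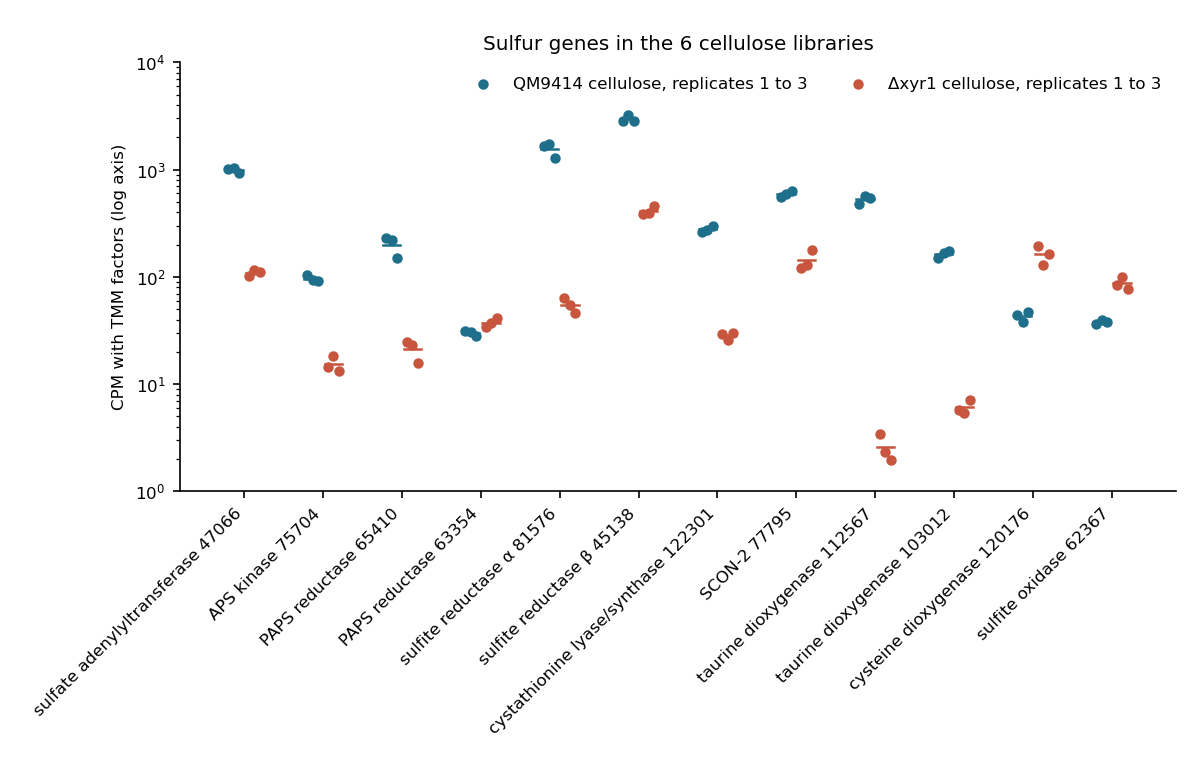
CPM (log axis) of 12 sulfur genes in each of the 6 cellulose libraries, with QM9414 in blue, Δxyr1 in red and a bar at each mean. In 9 genes the mutant points lie below the parental ones; in the second PAPS reductase gene, cysteine dioxygenase and sulfite oxidase they lie above.

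Many genes for making amino acids were lower, and several genes for breaking them down were higher. Of 183 genes of amino acid, nitrogen and cofactor metabolism, 39 were lower and 8 higher in Δxyr1 in cellulose (35 and 8 without QM9414 replicate 1), with a median log2 fold change of -0.22. In sophorose the counts were 12 and 14 and the median was 0.056. The interaction was below 0 for 31 of the 39 lower genes, against 582 of the 879 lower genes over all genes tested. The lists of single pathways that follow were assembled from the descriptions after values had been seen, hold every gene found for the pathway, and overlap with the central carbon group.

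The pathways to leucine, isoleucine, valine and lysine had 12 lower genes among 16, with a median log2 fold change of -1.36 (11 lower without QM9414 replicate 1). In sophorose 3 of the 16 were higher, with a median of 0.45. The interaction was below 0 for all 12 lower genes (582 of 879 over all genes tested). An isocitrate/isopropylmalate dehydrogenase (TRIREDRAFT_122233) was counted at 132, 115 and 146 CPM in QM9414 and 11.98, 11.95 and 13.1 CPM in Δxyr1. The replicates were close to each other in both strains, and the gene was lower by 10.6-fold (-3.41 ± 0.20, adjusted p = 3.90e-09), while it was higher in sophorose (1.02, adjusted p = 3.48e-04). Its description names both an isocitrate and an isopropylmalate enzyme, and it was counted in the central carbon group. Its place in leucine synthesis was not tested. Ketol-acid reductoisomerase (TRIREDRAFT_51499), which acts on the precursors of valine and isoleucine in mitochondria, was counted at 389, 353 and 402 CPM in QM9414 and 93.6, 101 and 116 CPM in Δxyr1. It too was lower in every mutant library (-1.88 ± 0.16, adjusted p = 2.80e-07). The 3-isopropylmalate dehydratase of leucine synthesis (TRIREDRAFT_75000) was lower, at -2.22 ± 0.19 (adjusted p = 2.52e-07), and the lysine enzymes homoaconitase (TRIREDRAFT_81570) and alpha-aminoadipate reductase (TRIREDRAFT_4117) at -1.68 ± 0.16 (adjusted p = 9.82e-07) and -2.08 ± 0.20 (adjusted p = 1.04e-06).

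The aspartate-derived pathway was lower in 7 of 8 genes, with a median log2 fold change of -1.69. Aspartate kinase (TRIREDRAFT_81896), its first enzyme, was lower, at -1.75 ± 0.13 (adjusted p = 6.57e-08). Homoserine dehydrogenase (TRIREDRAFT_122868) and homoserine kinase (TRIREDRAFT_82667) were lower, at -1.66 ± 0.16 and -1.71 ± 0.15, and 1 of the 2 threonine synthase genes (TRIREDRAFT_78409) at -1.28 ± 0.13. The other threonine synthase gene (TRIREDRAFT_67446) was at -0.13 ± 0.12 (adjusted p = 0.423). The homoserine O-acetyltransferases (TRIREDRAFT_66517 and TRIREDRAFT_123633), which lead from homoserine toward methionine, were lower, at -2.34 ± 0.18 and -2.11 ± 0.18. In arginine biosynthesis 7 of 11 genes were lower, with a median of -1.18. Among these were acetylglutamate kinase (TRIREDRAFT_103132, -1.37 ± 0.15), ornithine carbamoyltransferase (TRIREDRAFT_73937, -1.498 ± 0.21) and 1 of the 2 argininosuccinate synthetase genes (TRIREDRAFT_72643, -1.35 ± 0.16).

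Enzymes of ammonium assimilation were called in both directions. NADP-dependent glutamate dehydrogenase (TRIREDRAFT_73536), which makes glutamate from ammonium, was counted at 59.6, 57.8 and 58.55 CPM in QM9414 and 2.25, 0.343 and 1.22 CPM in Δxyr1. It was nearly silent in the mutant, with 19, 5 and 15 counts, and lower by 50.50-fold (-5.66 ± 0.39, adjusted p = 2.29e-08), or at a log2 fold change of -6.26 without Δxyr1 replicate 1. Glutamate synthase (TRIREDRAFT_122287) was lower, at -2.12 ± 0.22 (adjusted p = 1.67e-06). Glutamine synthetase (TRIREDRAFT_123009), in contrast, was counted at 271, 308 and 294 CPM in QM9414 and 741, 721 and 1047 CPM in Δxyr1. All mutant libraries were higher than the parental ones (1.52 ± 0.42, adjusted p = 0.00901). The ammonium transporters of TRIREDRAFT_82204 and TRIREDRAFT_43671 were also lower, at -4.85 ± 1.02 and -2.17 ± 0.35, but the levels in QM9414 rested in part on replicate 1. The first was counted at 168, 9.72 and 12.2 CPM in QM9414 and 1.90, 0.824 and 3.91 CPM in Δxyr1, and its log2 fold change without QM9414 replicate 1 was -2.32. That of the second was -1.63 without this library.

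Several breakdown genes were higher. Of 4 genes of branched-chain amino acid breakdown, 3 were higher in cellulose, whereas in sophorose these 3 had log2 fold changes of -0.35, -0.94 and -0.81, short of a 2-fold change. The alpha subunit of the branched-chain keto acid dehydrogenase (TRIREDRAFT_56726) was counted at 37.4, 37.2 and 37.4 CPM in QM9414 and 122, 154 and 119 CPM in Δxyr1. The parental libraries hardly differed from each other, and the mutant libraries lay 3.53-fold higher (1.82 ± 0.33, adjusted p = 4.44e-04). Isovaleryl-CoA dehydrogenase (TRIREDRAFT_108732) and methylcrotonyl-CoA carboxylase (TRIREDRAFT_64345), the next enzymes of leucine breakdown, were higher, at 1.07 ± 0.17 (adjusted p = 1.19e-04) and 1.23 ± 0.24 (adjusted p = 7.13e-04). The first fell below 2-fold when Δxyr1 replicate 2 was left out. At the end of this route, succinyl-CoA:3-ketoacid-CoA transferase (TRIREDRAFT_47603) and an acetoacetyl-CoA thiolase (TRIREDRAFT_120079), which turn acetoacetate into acetyl-CoA, were higher, at 1.64 ± 0.28 (adjusted p = 2.37e-04) and 1.76 ± 0.18 (adjusted p = 1.32e-06).

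Tryptophan breakdown through kynurenine gave the largest increases of these pathways. Of 8 genes, 3 were higher and 3 lower. An indoleamine 2,3-dioxygenase-like gene (TRIREDRAFT_123550), whose product opens the indole ring, was counted at 24.99, 23.7 and 32.2 CPM in QM9414 and 369.6, 496 and 437 CPM in Δxyr1. Every mutant library lay far above every parental one, and the gene was higher by 16.1-fold (4.01 ± 0.24, adjusted p = 4.85e-09). A further gene of this kind (TRIREDRAFT_54260) was higher, at 3.23 ± 0.24 (adjusted p = 6.16e-08), and the other (TRIREDRAFT_64330) was not called (0.52 ± 0.20, adjusted p = 0.0517). Kynureninase (TRIREDRAFT_44628), which cleaves kynurenine to anthranilate and alanine, was counted at 20.1, 22.7 and 23.7 CPM in QM9414 and 199, 261 and 235 CPM in Δxyr1. Its increase was 10.46-fold (3.39 ± 0.20, adjusted p = 4.85e-09). In sophorose, the genes of TRIREDRAFT_123550 and TRIREDRAFT_44628 were at log2 fold changes of -0.94 and -1.46, and their interactions were 4.95 (adjusted p = 3.93e-08) and 4.85 (adjusted p = 1.25e-08). The lower genes were the kynurenine aminotransferases (TRIREDRAFT_108299 and TRIREDRAFT_122820, -2.26 ± 0.14 and -1.61 ± 0.37), which lead to kynurenate, and a hydroxyanthranilate dioxygenase (TRIREDRAFT_71039, -1.09 ± 0.33, adjusted p = 0.015), which was called in 4 of the 6 fits that leave out 1 library. Tryptophan synthase (TRIREDRAFT_51103) was lower, at -1.51 ± 0.11 (adjusted p = 7.16e-08).

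Of 7 genes of tyrosine breakdown, 3 were higher and 1 lower in cellulose. The 4-hydroxyphenylpyruvate dioxygenase (TRIREDRAFT_121856), homogentisate dioxygenase (TRIREDRAFT_77739) and fumarylacetoacetase (TRIREDRAFT_77749) were higher, at 1.87 ± 0.40 (adjusted p = 0.00161), 1.14 ± 0.29 (adjusted p = 0.00587) and 1.27 ± 0.28 (adjusted p = 0.00215). The lower gene was a fumarylacetoacetate hydrolase at low level (TRIREDRAFT_66592, -1.60 ± 0.29). Homogentisate dioxygenase fell below 2-fold without Δxyr1 replicate 2. Arginase (TRIREDRAFT_123738), which splits arginine to ornithine and urea, was higher, at 1.53 ± 0.25 (adjusted p = 1.48e-04), and the proline symporter PutP (TRIREDRAFT_3412) at 1.65 ± 0.15 (adjusted p = 4.58e-07).

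**Figure D3:**
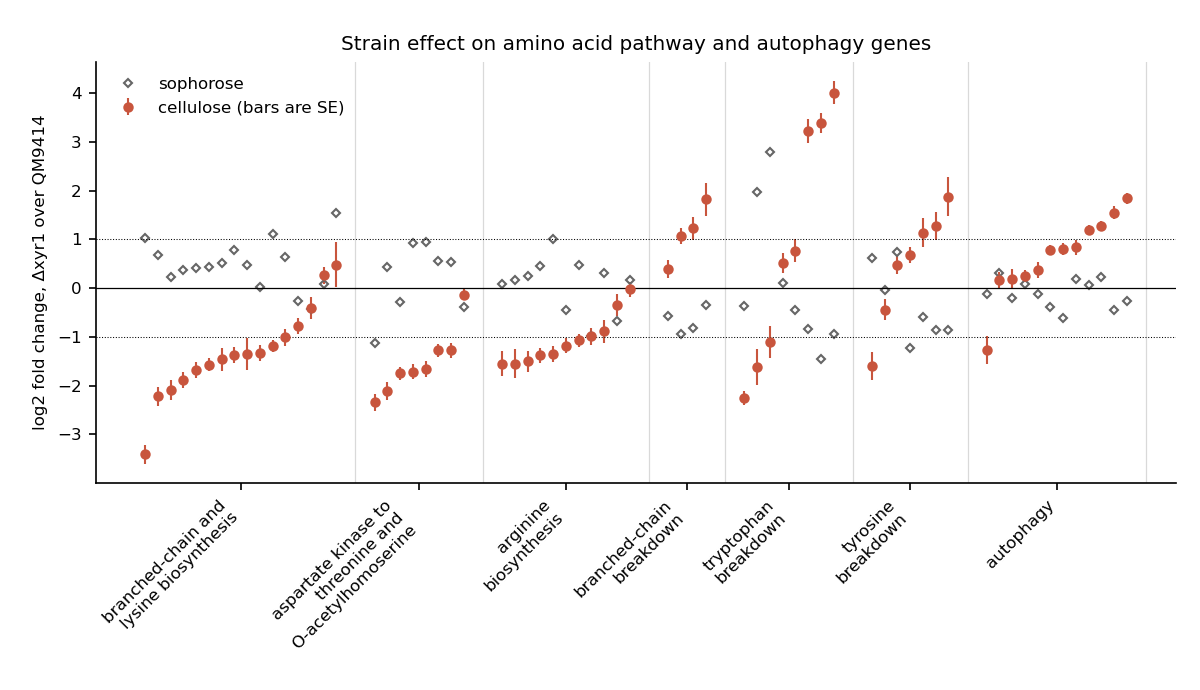
Log2 fold change of Δxyr1 over QM9414 for each gene of 6 amino acid pathway lists and of autophagy; red points are cellulose with bars of 1 standard error, grey diamonds are sophorose, and dotted lines mark a 2-fold change. The 3 biosynthesis lists lie mostly below 0 in cellulose (12 of 16, 7 of 8 and 7 of 11 genes called lower), and the largest values are those of tryptophan breakdown, up to 4.01.

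Several autophagy genes were higher in Δxyr1. Of 12 genes described as autophagy genes, 4 were higher and 1 lower, the median log2 fold change was 0.80, and in 10 of the 12 Δxyr1 in cellulose had the highest mean of the 6 groups, against 20.8% of all genes tested. The activating enzyme atg-7 (TRIREDRAFT_51378), which is needed to couple the autophagosome membrane markers to lipid, was counted at 131, 137 and 153 CPM in QM9414 and 508, 534 and 471 CPM in Δxyr1. The increase was 3.59-fold with little spread (1.85 ± 0.11, adjusted p = 5.01e-09), against -0.26 in sophorose. The membrane protein Atg9 (TRIREDRAFT_106761) was higher, at 1.55 ± 0.13 (adjusted p = 3.09e-07), Atg18 (TRIREDRAFT_65821) at 1.27 ± 0.11 (adjusted p = 2.18e-07), and a protease required for autophagy (TRIREDRAFT_48351) at 1.19 ± 0.10 (adjusted p = 2.52e-07). The lipase Atg15 (TRIREDRAFT_37368), at 0.81 ± 0.12 (adjusted p = 5.61e-05), did not reach a 2-fold change. The 1 lower gene, an Atg22-type gene (TRIREDRAFT_109643), was at -1.27 ± 0.29 (adjusted p = 0.00254).

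Central carbon enzymes had more lower than higher genes. Of 163 genes, 43 were lower and 5 higher in Δxyr1 in cellulose, with a median log2 fold change of -0.50, and 34 and 3 without QM9414 replicate 1. Without Δxyr1 replicate 3, 3 were higher. In sophorose the counts were 8 and 8 and the median was 0.23. Pyruvate kinase (TRIREDRAFT_78439), the last enzyme of glycolysis, was counted at 387, 406 and 372 CPM in QM9414 and 64.6, 77.6 and 64.1 CPM in Δxyr1. The decrease was 5.64-fold (-2.495 ± 0.30, adjusted p = 8.37e-06), and was at a log2 fold change of 0.14 in sophorose. Among 17 genes of glycolysis, enolase (TRIREDRAFT_120568, -1.18 ± 0.27, adjusted p = 0.00293) and a triose phosphate isomerase-like gene (TRIREDRAFT_121789, -1.15 ± 0.17, adjusted p = 9.06e-05) were the other 2 that were lower. Without scaling factors 1 of the 17 was lower, and without Δxyr1 replicate 3 the number was 5.

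The higher genes of this group stood at other points of metabolism. A hexokinase gene (TRIREDRAFT_79677) was counted at 29.8, 33.51 and 29.6 CPM in QM9414 and 107, 149 and 139.9 CPM in Δxyr1. The increase was 4.27-fold (2.10 ± 0.13, adjusted p = 6.73e-09), whereas the more abundant hexokinase (TRIREDRAFT_73665) was at -0.52 ± 0.12 (adjusted p = 0.00259) and glucokinase (TRIREDRAFT_80231) at -0.042 ± 0.13 (adjusted p = 0.826). The mitochondrial succinate/fumarate antiporter (TRIREDRAFT_121743), which is known in yeast from growth on acetate and ethanol, was higher, at 1.34 ± 0.24 (adjusted p = 3.86e-04). Isocitrate lyase (TRIREDRAFT_21758), the first enzyme of the glyoxylate cycle, was at 1.01 ± 0.21 (adjusted p = 0.00128) and was called in 3 of the 6 fits that leave out 1 library. The mitochondrial citrate synthase (TRIREDRAFT_122296) was lower, at -1.18 ± 0.18 (adjusted p = 9.78e-05) and the ATP citrate lyase subunits (TRIREDRAFT_121824 and TRIREDRAFT_121826), which make acetyl-CoA for lipids, at -1.20 ± 0.21 and -1.38 ± 0.21.

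Lipid genes were divided. Their shares were near those of all genes tested, with 12.4% lower against 10.3% and 7.34% higher against 8.29%. Of 177 genes of fatty acid, lipid and sterol metabolism 22 were lower and 13 higher (16 and 12 without QM9414 replicate 1, and 14 lower without scaling factors). A phospholipase C that is specific for glycosylphosphatidylinositol (TRIREDRAFT_44366), an enzyme that can release anchored proteins, was counted at 48.8, 47.7 and 49.9 CPM in QM9414 and 749.8, 465 and 611 CPM in Δxyr1. It was higher by 12.46-fold (3.64 ± 0.23, adjusted p = 8.71e-09). A phosphatidylinositol polyphosphate phosphatase (TRIREDRAFT_80273) was counted at 47.6, 51.8 and 53.4 CPM in QM9414 and 541, 506 and 499 CPM in Δxyr1. The replicates lay close together within each strain, and the increase was 10.1-fold (3.34 ± 0.13, adjusted p = 1.30e-10), while in sophorose it was at -0.999 (adjusted p = 1.41e-05). Carnitine acyltransferase (TRIREDRAFT_122240) and a carnitine carrier (TRIREDRAFT_103853), which bring acyl groups into mitochondria, were higher, at 1.41 ± 0.21 (adjusted p = 6.34e-05) and 1.45 ± 0.23 (adjusted p = 1.15e-04). The phosphatidyl synthase of TRIREDRAFT_64959 was lower, at -2.86 ± 0.60 (adjusted p = 0.00139).

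The HET, ankyrin and NACHT genes had the largest share of higher genes. Of 97 tested, 28 were higher and 2 lower in Δxyr1 in cellulose (26 and 2 without QM9414 replicate 1), with a median log2 fold change of 0.50 against -0.018 over all genes. In sophorose 1 was higher and 17 were lower, with a median of -0.25. The interaction was above 0 for 41 of the 97 genes, among them 24 of the 28, and 5 of the 28 were lower in sophorose. Over all genes tested the interaction was above 0 for 507 of the 705 higher genes, and 97 of these 705 were lower in sophorose. Members of these families resemble each other in sequence, and only uniquely aligned reads were counted, so counts of close copies are uncertain.

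The HET genes with the largest increases were hardly counted in QM9414 in cellulose. A HET gene (TRIREDRAFT_103189) was counted at 0.497, 0.429 and 0.984 CPM in QM9414 and 22.3, 14.1 and 16.1 CPM in Δxyr1. In cellulose, the gene was nearly silent in every parental library and clearly counted in every mutant library (4.76 ± 0.35, adjusted p = 5.50e-08). Its mean in sophorose was 3.68 CPM in QM9414 and 4.37 CPM in Δxyr1. The HET-domain gene of TRIREDRAFT_109101 was counted at 0.447, 0.0715 and 0.553 CPM in QM9414 and 20.04, 1.99 and 8.15 CPM in Δxyr1. This HET-domain gene averaged 10.2 CPM in QM9414 in sophorose, near its mean of 10.1 CPM in Δxyr1 in cellulose. Its mutant cellulose libraries spread widely, with replicate 2 the lowest. Without Δxyr1 replicate 1 the log2 fold change was 3.72, against 4.68 ± 0.71 with it. The same order of the mutant replicates was seen in a further HET gene (TRIREDRAFT_111494, 2.34, 1.79 and 1.72 CPM in QM9414 and 28.46, 4.67 and 15.2 CPM in Δxyr1), in a protein kinase gene (TRIREDRAFT_105820, 0.199, 0.143 and 0.307 CPM in QM9414 and 20.8, 2.20 and 10.2 CPM in Δxyr1) and in a gene described as a cyclin C-dependent kinase (TRIREDRAFT_105449, 0.0497, 0.214 and 0.0615 CPM in QM9414 and 17.9, 1.37 and 7.90 CPM in Δxyr1). Without Δxyr1 replicate 1 their log2 fold changes were 2.33, 4.76 and 5.40, against 3.005, 5.57 and 6.34 with it, and without QM9414 replicate 2 the last was at 7.11.

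A pair of ankyrin genes varied less between the replicates. The ankyrin gene of TRIREDRAFT_123673 was counted at 6.41, 6.72 and 5.60 CPM in QM9414 and 61.7, 46.3 and 55.8 CPM in Δxyr1. The mutant libraries lay 8.73-fold higher on average (3.13 ± 0.32, adjusted p = 1.51e-06), and in sophorose the gene stood at -0.99 (adjusted p = 0.0111). Its mean was 60.4 CPM in QM9414 in sophorose and 54.6 CPM in Δxyr1 in cellulose. The ankyrin gene of TRIREDRAFT_104180 was counted at 7.503, 9.07 and 10.9 CPM in QM9414 and 59.1, 38.2 and 47.7 CPM in Δxyr1. Its level was 5.26-fold higher in Δxyr1 (2.39 ± 0.23, adjusted p = 7.17e-07), with 29.7 CPM in QM9414 and 16.7 CPM in Δxyr1 on average in sophorose. The NACHT and WD40 gene of TRIREDRAFT_120231 was higher, at 1.78 ± 0.27 (adjusted p = 7.94e-05). An ankyrin gene that was lower (TRIREDRAFT_106161) was at -2.79 ± 0.30 (adjusted p = 2.89e-06), from 21.4, 22.01 and 20.8 CPM in QM9414.

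**Figure D4:**
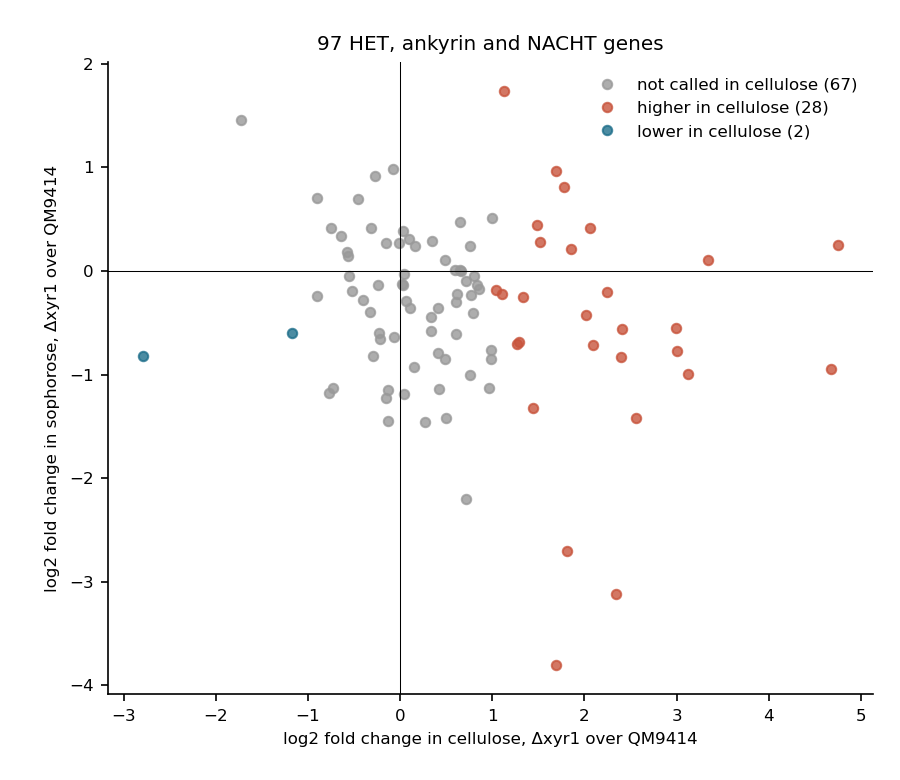
Log2 fold change of Δxyr1 over QM9414 in cellulose (x axis) and in sophorose (y axis) for the 97 HET, ankyrin and NACHT genes tested; red points were called higher in cellulose (28), blue points lower (2) and grey points neither (67). Red points reach 4.76 in cellulose, 5 of them were called lower in sophorose, and the median of all 97 in sophorose was -0.25.

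Chaperone genes moved in a few members. Their shares were below those of all genes tested, with 9.64% lower against 10.3% and 3.61% higher against 8.29%. Of 83 genes 8 were lower and 3 higher in cellulose (7 and 3 without QM9414 replicate 1), 5 were lower without QM9414 replicate 3 and 4 without Δxyr1 replicate 1 or 2, and the median log2 fold change was -0.099, which became 0.011 with upper-quartile factors and 0.10 without scaling factors. In sophorose 3 were lower and 22 higher. A small heat shock protein of the Hsp26/Hsp42 type (TRIREDRAFT_122363) was counted at 985, 472 and 1633 CPM in QM9414 and 32.97, 14.8 and 60.8 CPM in Δxyr1. The replicates of each strain spread widely, yet all mutant libraries lay below all parental ones (-4.83 ± 1.23, adjusted p = 0.00534; -5.44 without Δxyr1 replicate 3). In sophorose the order was different, with 56.1, 59.54 and 77.1 CPM in QM9414 and 36.2, 1547 and 3215 CPM in Δxyr1, so that Δxyr1 replicate 1 did not share the increase seen in replicates 2 and 3 (log2 fold change 4.64, adjusted p = 0.00612).

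The endoplasmic reticulum chaperone BiP (TRIREDRAFT_122920), which folds secreted proteins, was counted at 1315, 1309 and 1677 CPM in QM9414 and 550.5, 543 and 641 CPM in Δxyr1. It was lower by 2.48-fold (-1.31 ± 0.22, adjusted p = 2.61e-04). Protein disulfide isomerase 1 (TRIREDRAFT_122415), which forms disulfide bonds in the same compartment, was lower, at -1.25 ± 0.16 (adjusted p = 2.27e-05) in cellulose and was at 0.0015 in sophorose. An abundant Hsp70 (TRIREDRAFT_55362) was counted at 9119, 7685 and 10705 CPM in QM9414 and 2707, 2094 and 4455 CPM in Δxyr1. It was lower, at -1.57 ± 0.48 (adjusted p = 0.0156), and it was called in 4 of the 6 fits that leave out 1 library, with an adjusted p of up to 0.0713. Hsp90 (TRIREDRAFT_123114), at -1.30 ± 0.46 (adjusted p = 0.0356), was called in 2 of the 6 fits that leave out 1 library. A different Hsp70 (TRIREDRAFT_121839) was higher, at 1.48 ± 0.19 (adjusted p = 1.60e-05).

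Redox genes also had more lower than higher genes. Of 61 genes for glutathione, thioredoxin and oxidative defence, 18 were lower and 3 higher (13 and 4 without QM9414 replicate 1), with a median log2 fold change of -0.34. The interaction was below 0 for all 18 lower genes (582 of 879 over all genes tested). In sophorose 4 were lower and 19 higher, with a median of 0.51. A glutathione S-transferase (TRIREDRAFT_110853) was counted at 30.51, 31.9 and 30.9 CPM in QM9414 and 1.42, 1.51 and 1.87 CPM in Δxyr1. Its level was 19.2-fold lower in Δxyr1 (-4.26 ± 0.31, adjusted p = 5.11e-08). Glutathione reductase (TRIREDRAFT_53567), which keeps glutathione reduced, was lower, at -1.15 ± 0.18 (adjusted p = 1.46e-04), and the mitochondrial manganese superoxide dismutase (TRIREDRAFT_50039) at -1.26 ± 0.20 (adjusted p = 1.34e-04). A glutathione S-transferase that had shown -3.67 (TRIREDRAFT_111082) went to -0.087 without QM9414 replicate 1. A catalase (TRIREDRAFT_106245), which destroys hydrogen peroxide, was counted at 3.78, 4.72 and 3.87 CPM in QM9414 and 36.4, 36.54 and 33.7 CPM in Δxyr1. The increase was 8.64-fold (3.11 ± 0.20, adjusted p = 1.28e-08), with means of 1.33 to 1.67 CPM in the other 4 groups.

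Iron handling changed in both directions, with 8 of 43 genes lower and 6 higher (7 and 7 without QM9414 replicate 1). Ferric reductases reduce iron at the cell surface before uptake. That of TRIREDRAFT_110666 was counted at 119, 137 and 147 CPM in QM9414 and 1.19, 0.275 and 0.407 CPM in Δxyr1. It was the largest decrease of this group, to 10, 4 and 5 counts (-7.91 ± 0.36, adjusted p = 5.18e-10; -8.61 without Δxyr1 replicate 1), while in sophorose it was higher in Δxyr1 (1.36, adjusted p = 3.47e-04). The ferric reductase of TRIREDRAFT_106936 was lower in cellulose, at -6.72 ± 0.37 (adjusted p = 1.16e-08), with 1, 1 and 2 counts in the mutant libraries. It was lower in sophorose as well (-7.50, adjusted p = 3.45e-06), from a low mean of 1.56 CPM in QM9414. The ferric reductase of TRIREDRAFT_111893 was counted at 13.1, 13.1 and 11.3 CPM in QM9414 and 69.1, 79.4 and 67.2 CPM in Δxyr1. The gene of TRIREDRAFT_111893 was higher by 5.75-fold (2.52 ± 0.19, adjusted p = 6.66e-08). A siderophore transporter (TRIREDRAFT_82017), which takes up iron bound to secreted chelators, was higher, at 1.76 ± 0.16 (adjusted p = 3.62e-07) and by nearly the same amount in sophorose (1.89). The alternative oxidase aox1 (TRIREDRAFT_57940), which passes electrons to oxygen without pumping protons, was lower, at -2.14 ± 0.47 (adjusted p = 0.00191).

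Oxidases and monooxygenases had many lower genes. Of 133 flavin oxidases, monooxygenases, laccases and peroxidases, 33 were lower and 13 higher (25 and 14 without QM9414 replicate 1), and of 331 other dehydrogenases, reductases and hydrolases 65 were lower and 25 higher (53 and 28). The shares were 24.8% lower and 9.77% higher in the first group and 19.6% and 7.55% in the second. Over all genes tested they were 10.3% and 8.29%. A flavoprotein monooxygenase (TRIREDRAFT_4146) was counted at 14.9, 14.1 and 12.6 CPM in QM9414 and 115, 184 and 131 CPM in Δxyr1. The mutant libraries lay 10.3-fold higher on average (3.37 ± 0.35, adjusted p = 2.12e-06). A catechol dioxygenase (TRIREDRAFT_62165), which opens aromatic rings, was counted at 6.41, 8.29 and 7.87 CPM in QM9414 and 65.2, 109.8 and 80.7 CPM in Δxyr1. Its level was 11.4-fold higher in Δxyr1 (3.51 ± 0.35, adjusted p = 1.43e-06). In QM9414 in sophorose, the monooxygenase averaged 147 CPM and the catechol dioxygenase 88.4 CPM. Their means in Δxyr1 in cellulose were 143 and 85.2 CPM. Both genes were lower in Δxyr1 in sophorose (-2.59, adjusted p = 3.44e-05, and -1.56, adjusted p = 0.00129), so the strain effect had opposite directions in the cellulose and the sophorose libraries, which also differ in culture time. An iron-dependent dioxygenase (TRIREDRAFT_69529) was lower, at -7.32 ± 0.78 (adjusted p = 2.70e-06), with 9, 3 and 8 counts in the mutant libraries.

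Transcription factor genes were nearly balanced in count, with 28 of 430 lower and 30 higher (20 and 30 without QM9414 replicate 1), and without scaling factors the counts were 14 and 46. The main shares, 6.51% lower and 6.98% higher, were below those of all genes tested (10.3% and 8.29%). In 31.2% of the transcription factor genes Δxyr1 in cellulose had the highest mean of the 6 groups, against 20.8% of all genes. A Zn2Cys6 regulator described as similar to Fcr1 of Candida albicans (TRIREDRAFT_122271) was counted at 39.3, 44.3 and 46.9 CPM in QM9414 and 604, 411 and 466 CPM in Δxyr1. The increase was 11.4-fold (3.505 ± 0.18, adjusted p = 1.48e-09), and the other 4 groups had means of 2.46 to 7.92 CPM. A C2H2 zinc finger gene (TRIREDRAFT_58475) was counted at 1.69, 1.79 and 1.66 CPM in QM9414 and 87.2, 55.8 and 90.7 CPM in Δxyr1. It was higher by 45.3-fold (5.501 ± 0.50, adjusted p = 5.13e-07), and in QM9414 in sophorose it was counted at 119.7, 39.2 and 38.4 CPM. Replicate 1 of these lay above the range of the mutant in cellulose and the others below it. A second C2H2 regulator (TRIREDRAFT_120224) was higher, at 1.86 ± 0.16 (adjusted p = 2.18e-07).

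Regulators that were lower included VIB-1. This gene (TRIREDRAFT_54675), known in Neurospora crassa from heterokaryon incompatibility and from growth on cellulose, was lower, at -1.83 ± 0.18 (adjusted p = 1.08e-06). A bZIP regulator (TRIREDRAFT_110152) was lower, at -2.33 ± 0.22 (adjusted p = 6.46e-07), and STE12 (TRIREDRAFT_36543), a regulator of mating and filamentation in yeast, at -1.12 ± 0.27 (adjusted p = 0.00389).

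Among 399 transporters that the study did not list, 63 were lower and 35 higher (53 and 33 without QM9414 replicate 1). These are shares of 15.8% and 8.77%, against 10.3% and 8.29% of all genes tested. The peptide transporter MTD1 (TRIREDRAFT_123979) was counted at 1376, 1277 and 1304 CPM in QM9414 and 6.88, 4.74 and 5.38 CPM in Δxyr1. The decrease was 234-fold (-7.87 ± 0.64, adjusted p = 1.43e-07), against -1.94 in sophorose. An MFS permease (TRIREDRAFT_79202), which the annotation ties to cellulose signalling, was counted at 523, 613 and 537 CPM in QM9414 and 16.01, 9.20 and 10.1 CPM in Δxyr1. It was lower by 47.6-fold in cellulose (-5.57 ± 0.37, adjusted p = 1.65e-08) but higher in sophorose (1.10, adjusted p = 0.00852). The amino acid transporter of TRIREDRAFT_60144 had 48.8, 59.4 and 51.4 CPM in QM9414 and 1, 2 and 0 counts in the mutant libraries, and its log2 fold change of -9.15 was at -9.86 without Δxyr1 replicate 2. The plasma membrane proton ATPase (TRIREDRAFT_76238), which drives uptake, was lower, at -2.83 ± 0.35 (adjusted p = 1.20e-05), and was counted at 1727, 929.9 and 577 CPM in QM9414 and 171, 119.6 and 163 CPM in Δxyr1. QM9414 replicate 1 was the highest library, and without it the log2 fold change was -2.32.

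Ion transporters were among the abundant genes that were higher. The potassium/proton antiporter of TRIREDRAFT_35777 was counted at 205, 231 and 255 CPM in QM9414 and 1362, 1830.2 and 1260.5 CPM in Δxyr1. The mutant libraries lay 6.44-fold higher on average (2.69 ± 0.17, adjusted p = 1.03e-08), and also in sophorose (1.24, adjusted p = 3.54e-05). A voltage-gated chloride channel (TRIREDRAFT_80725) was higher, at 2.58 ± 0.14 (adjusted p = 2.72e-09) and a calcium-dependent mitochondrial carrier (TRIREDRAFT_80775) at 2.40 ± 0.11 (adjusted p = 6.73e-10).

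Proteases were balanced, with 18 of 150 lower and 17 higher (18 and 18 without QM9414 replicate 1). Aminopeptidase Y (TRIREDRAFT_81087), a vacuolar enzyme in yeast, was counted at 101, 116 and 128 CPM in QM9414 and 10.3, 8.93 and 9.53 CPM in Δxyr1. Its level was 12.01-fold lower in Δxyr1 (-3.59 ± 0.22, adjusted p = 5.95e-09). A subtilisin-type peptidase (TRIREDRAFT_123865) was counted at 56.55, 62.1 and 32.4 CPM in QM9414 and 347, 212 and 350.2 CPM in Δxyr1. Its level was 6.02-fold higher in Δxyr1 (2.59 ± 0.33, adjusted p = 1.81e-05), although in sophorose it was lower (-1.28, adjusted p = 0.00453). The mean of this gene was 328 CPM in QM9414 in sophorose and 303 CPM in Δxyr1 in cellulose. A calpain-like protease (TRIREDRAFT_64370), of a family that calcium activates, was higher, at 2.67 ± 0.25 (adjusted p = 5.18e-07).

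Small secreted proteins had more lower than higher genes in cellulose and more higher than lower genes in sophorose. Of 123 hydrophobins and small secreted cysteine-rich proteins, 23 were lower and 13 higher in cellulose (21 and 13 without QM9414 replicate 1), whereas in sophorose 9 were lower and 33 higher, and 9 genes were lower in the first and higher in the second. The QI74 orthologue (TRIREDRAFT_74282), a secreted protein, was counted at 13113, 16038 and 17446 CPM in QM9414 and 3661, 5257 and 4995 CPM in Δxyr1. Although it was lower by 3.35-fold (-1.74 ± 0.28, adjusted p = 1.39e-04), it remained among the abundant transcripts of the mutant, and in sophorose it was higher (4.08, adjusted p = 1.45e-07). The small secreted cysteine-rich protein of TRIREDRAFT_70919 was counted at 4.82, 3.86 and 5.17 CPM in QM9414 and 96.4, 71.6 and 80.99 CPM in Δxyr1. The increase was 17.9-fold (4.16 ± 0.18, adjusted p = 4.21e-10). Of 28 genes for polyketide, nonribosomal peptide and terpene synthesis 3 were lower and 1 higher (2 and 1 without QM9414 replicate 1). These are shares of 10.7% and 3.57%, against 10.3% and 8.29% of all genes tested. Of 58 cytochrome P450 genes 9 were lower (6 without QM9414 replicate 1, 5 without scaling factors) and 7 higher (7 without QM9414 replicate 1, 4 without Δxyr1 replicate 1). The P450 shares were 15.5% and 12.1%, against the same 10.3% and 8.29%. A nonribosomal peptide synthetase (TRIREDRAFT_123786), an enzyme class that builds peptides without ribosomes, was lower, at -1.92 ± 0.31 (adjusted p = 1.79e-04).

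Ribosomal, respiratory, vesicle, proteasome, kinase and replication genes had smaller shares of lower and of higher calls in cellulose than all genes tested. Of 142 ribosomal protein genes 1 was lower and 2 higher in cellulose (1 and 3 without QM9414 replicate 1), with a median log2 fold change of 0.030, whereas in sophorose 1 was lower and 65 higher, with a median of 0.92. The respiratory chain and ATP synthase had 2 of 85 genes lower and 0 higher in cellulose (2 and 1 without QM9414 replicate 1), against 2 lower and 19 higher in sophorose. Among 153 vesicle transport genes 2 were lower and 5 higher (2 and 3 without QM9414 replicate 1, and 3 higher without Δxyr1 replicate 2). Among 145 ubiquitin and proteasome genes 2 were lower and 8 higher, with or without QM9414 replicate 1, although 14 were higher without scaling factors. Of 157 protein kinases and phosphatases 5 were lower and 9 higher (4 and 8 without QM9414 replicate 1). Of 113 genes of DNA replication, cell cycle and histones 1 was lower and 6 higher (2 and 7 without QM9414 replicate 1), among them GINS subunit PSF1 (TRIREDRAFT_21653), a part of the replicative helicase, at 2.30 ± 0.13 (adjusted p = 2.48e-09). The 113 genes of G-protein signalling were near the shares of all genes, with 10 lower (10 without QM9414 replicate 1, 5 without scaling factors) and 8 higher (7 without QM9414 replicate 1). Of 20 conidiation and development genes 4 were lower (3 without QM9414 replicate 1), a share of 20.0% against 10.3% of all genes, and 0 were higher. The lower ones include genes described as sexual differentiation process protein ISP4 and as sporulation-specific CDC3. This group follows such words in the descriptions, and a role of these genes in conidiation was not tested.

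Genes with no known function held the largest part of the increases. Of 2524 such genes 163 were lower and 303 higher (141 and 303 without QM9414 replicate 1), and the 303 made up 46.5% of the higher genes outside CAZymes and listed transporters, against 31.5% of the genes tested and 21.9% of the lower genes. A further 75 genes had no description, of which 25 were lower and 3 higher, and 11 and 4 without QM9414 replicate 1, and 15 were lower without Δxyr1 replicate 1. The largest changes among the genes with no known function were those of TRIREDRAFT_105445 and TRIREDRAFT_59065, at 6.94 ± 0.62 and 6.67 ± 0.68, and of TRIREDRAFT_106686 and TRIREDRAFT_64049, at -8.09 ± 0.67 and -5.97 ± 0.82. The genes of TRIREDRAFT_123673, TRIREDRAFT_4146 and TRIREDRAFT_62165, named above for the size of their increase, had also been assayed by qRT-PCR. A further gene, named only because it had been assayed in this way (TRIREDRAFT_109945), was counted at 7.01, 6.65 and 9.16 CPM in QM9414 and 67.2, 45.2 and 63.6 CPM in Δxyr1. It was higher by 7.70-fold (2.94 ± 0.24, adjusted p = 1.47e-07). Another of these (TRIREDRAFT_76359) was higher, at 3.55 ± 0.29 (adjusted p = 1.72e-07). In sophorose, the log2 fold changes of TRIREDRAFT_109945 and TRIREDRAFT_76359 were -1.90 and -1.20.

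**Figure D5:**
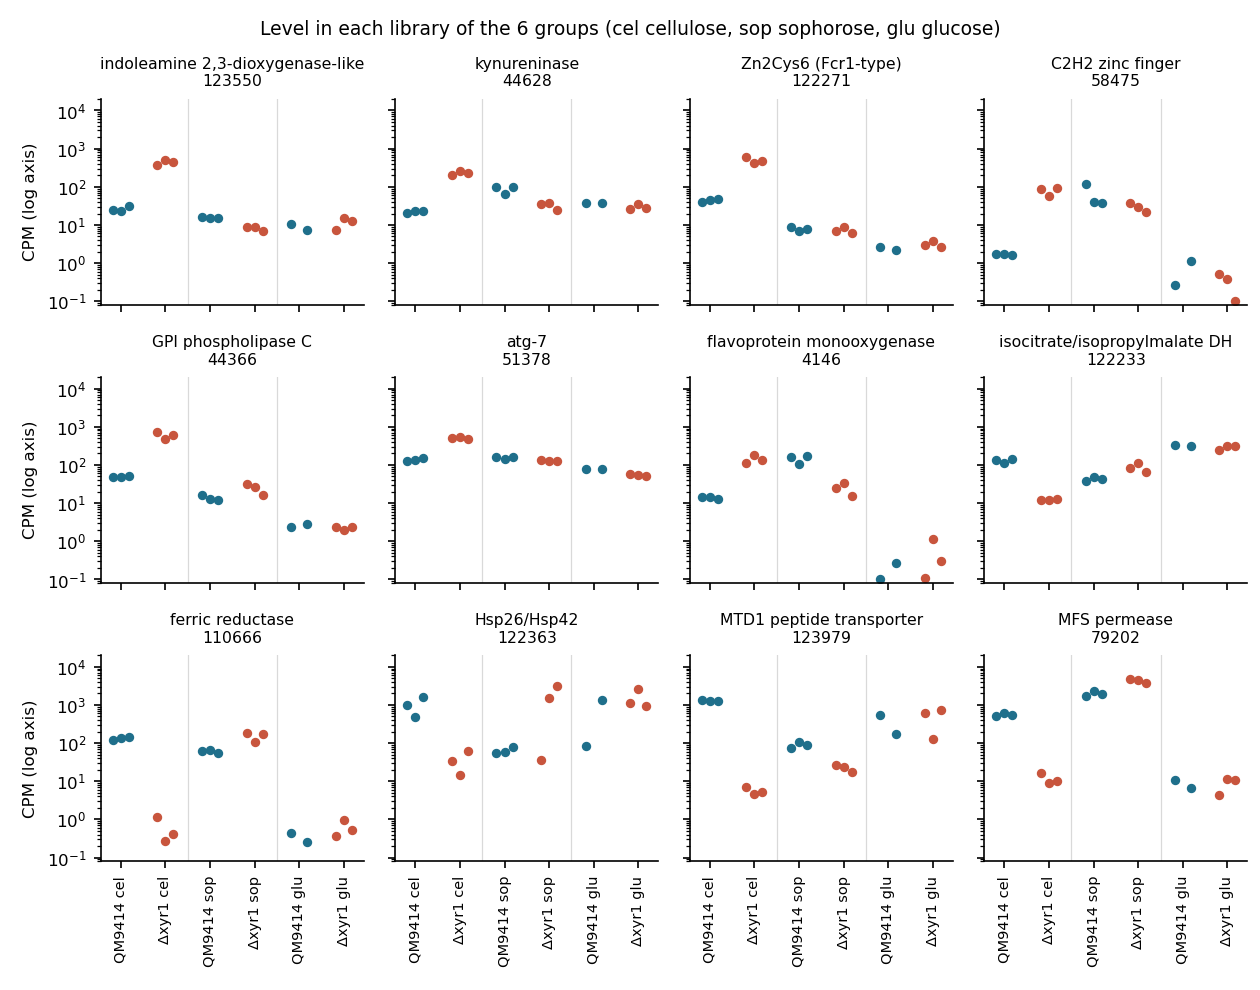
CPM (log axis) of 12 genes in every library of the 6 groups, with QM9414 in blue and Δxyr1 in red; values under 0.1 CPM are drawn at 0.1. The Δxyr1 cellulose points are the highest of all groups in the indoleamine 2,3-dioxygenase-like gene (369.6 CPM and above) and in kynureninase, and in the ferric reductase they lie near the glucose libraries.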

How the data were processed

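Paired 100 bp reads (TruSeq, Illumina HiSeq) were aligned by the authors with TopHat2 2.0.4 to the T. reesei genome, only unique alignments were kept, and the authors deposited raw counts per gene from HTSeq 0.6.0 (SAMtools 0.1.19 per the labels). The strand setting of the counting is not given in the sources used here, so reads of overlapping and antisense genes cannot be told apart. The authors' normalized values, fold changes and p-values were not used, and QM9414 glucose replicate 2 was not analysed here.

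The counts of the 17 libraries were fitted in 6 groups with edgeR 4.0.16 in R 4.3.3 (quasi-likelihood test, TMM factors), using genes that reached 10 counts in 2 or more libraries, and DESeq2 1.42.0 was an alternative. Tables were made with python 3.11.15 and pandas 2.3.3. Counting reads of whole cultures gave 7014100 to 19628491 counts per cellulose library. On simulated counts for 8459 genes with this design, 100 of 100 genes changed 4-fold and 43 of 100 changed 2-fold were called, with 2 calls among 8259 unchanged genes. The changed genes were picked among well-counted genes only. Each simulated gene took the spread typical of its level, with none of its own, and no library stood apart. These rates are therefore likely better than those in the real data. Fold values given as n-fold are ratios of fitted levels or their inverse.

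Groups were made from the annotated descriptions, with letters restored in 1745 descriptions that had lost them. RefSeq symbols were found for 226 genes of 9072 matched locus tags (assembly v2.0 of strain QM6a). Members and lists were chosen with earlier results of these data known, and the sulfur group and all single-pathway lists after the values had been seen, so they have counts and medians and no test. By rule, each group with at least 5 tested members gave up to 3 genes with the largest increase and up to 3 with the largest decrease, among called genes without overlap between strains, called also without QM9414 cellulose replicate 1, with a mean of at least 5 CPM in the higher strain. xyr1, the 2 genes of unknown function with the largest change in each direction and genes that the study measured by qRT-PCR were added. The genes named in this way are TRIREDRAFT_122208, TRIREDRAFT_112567, TRIREDRAFT_59876, TRIREDRAFT_30776, TRIREDRAFT_77767, TRIREDRAFT_62367, TRIREDRAFT_122233, TRIREDRAFT_73536, TRIREDRAFT_123009, TRIREDRAFT_47603, TRIREDRAFT_123550, TRIREDRAFT_44628, TRIREDRAFT_3412, TRIREDRAFT_51378, TRIREDRAFT_79677, TRIREDRAFT_121743, TRIREDRAFT_44366, TRIREDRAFT_80273, TRIREDRAFT_64959, TRIREDRAFT_103189, TRIREDRAFT_109101, TRIREDRAFT_105820, TRIREDRAFT_105449, TRIREDRAFT_123673, TRIREDRAFT_106161, TRIREDRAFT_122363, TRIREDRAFT_121839, TRIREDRAFT_110853, TRIREDRAFT_106245, TRIREDRAFT_110666, TRIREDRAFT_111893, TRIREDRAFT_82017, TRIREDRAFT_57940, TRIREDRAFT_4146, TRIREDRAFT_62165, TRIREDRAFT_69529, TRIREDRAFT_122271, TRIREDRAFT_58475, TRIREDRAFT_110152, TRIREDRAFT_123979, TRIREDRAFT_60144, TRIREDRAFT_35777, TRIREDRAFT_81087, TRIREDRAFT_123865, TRIREDRAFT_64370, TRIREDRAFT_70919, TRIREDRAFT_123786, TRIREDRAFT_21653, TRIREDRAFT_105445, TRIREDRAFT_59065, TRIREDRAFT_106686, TRIREDRAFT_64049, TRIREDRAFT_109945 and TRIREDRAFT_76359; all other genes named were chosen after their values had been seen. The rule picked 142 genes, of which the results describe only a part, and this further choice was not set by the rule. Not described are, for example, the myb regulator TRIREDRAFT_4124 (-3.30 ± 0.35) and, among genes measured by qRT-PCR, the listed transporter TRIREDRAFT_64710. TRIREDRAFT_106936 is an exception to the list above, because it is described and was picked by the rule. The replicate number did not pair the libraries of the strains.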

Additional observations from a re-analysis of the deposited data

Results flagged for a closer look

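In 40 of the 41 genes for which it was recomputed, the strain effect in cellulose differed from that in sophorose in edgeR's quasi-likelihood test of the interaction. The values are log2 differences, the effect in cellulose minus that in sophorose. The culture times of the strains matched in sophorose but not in cellulose. The genes were named for their cellulose values, so the number of flags describes this choice. The part of the culture time in these differences was not tested.

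Among sulfur genes, the difference was -3.08 for the taurine dioxygenase (TRIREDRAFT_112567), -3.46 and -1.82 for the sulfite reductase subunits (TRIREDRAFT_81576 and TRIREDRAFT_45138), -2.27 for sulfate adenylyltransferase (TRIREDRAFT_47066), -2.42 for PAPS reductase (TRIREDRAFT_65410), -1.35 for SCON-2 (TRIREDRAFT_77795) and 1.59 for cysteine dioxygenase (TRIREDRAFT_120176). All but the last were below 0.

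In amino acid and carbon metabolism, values below 0 were found for isocitrate/isopropylmalate dehydrogenase (TRIREDRAFT_122233, -4.43), ketol-acid reductoisomerase (TRIREDRAFT_51499, -2.26), pyruvate kinase (TRIREDRAFT_78439, -2.64) and NADP-glutamate dehydrogenase (TRIREDRAFT_73536, -3.44). Values above 0 were found for hexokinase (TRIREDRAFT_79677, 2.44), glutamine synthetase (TRIREDRAFT_123009, 1.73), the branched-chain keto acid dehydrogenase (TRIREDRAFT_56726, 2.17), the indoleamine 2,3-dioxygenase-like gene (TRIREDRAFT_123550, 4.95), kynureninase (TRIREDRAFT_44628, 4.85), atg-7 (TRIREDRAFT_51378, 2.10), the phospholipase C (TRIREDRAFT_44366, 2.81) and the phosphatidylinositol phosphatase (TRIREDRAFT_80273, 4.34).

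The HET gene (TRIREDRAFT_103189) and the ankyrin genes (TRIREDRAFT_123673 and TRIREDRAFT_104180) were at 4.505, 4.12 and 3.23. The Hsp26/Hsp42 gene (TRIREDRAFT_122363) had -9.47, where 1 of the 3 Δxyr1 sophorose libraries lay with the parental ones, while Hsp70 (TRIREDRAFT_55362) and BiP (TRIREDRAFT_122920) had -3.40 and -1.04. The glutathione S-transferase (TRIREDRAFT_110853), the ferric reductases (TRIREDRAFT_110666 and TRIREDRAFT_111893) and catalase (TRIREDRAFT_106245) were at -3.14, -9.26, 1.93 and 3.21. The flavoprotein monooxygenase (TRIREDRAFT_4146), the catechol dioxygenase (TRIREDRAFT_62165), the Fcr1-type regulator (TRIREDRAFT_122271) and the C2H2 gene (TRIREDRAFT_58475) were at 5.95, 5.06, 3.61 and 6.63.

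MTD1 (TRIREDRAFT_123979) and the MFS permease (TRIREDRAFT_79202) were at -5.93 and -6.68, and the potassium/proton antiporter (TRIREDRAFT_35777) at 1.45. Aminopeptidase Y (TRIREDRAFT_81087), the subtilisin-type peptidase (TRIREDRAFT_123865), QI74 (TRIREDRAFT_74282) and the small secreted protein of TRIREDRAFT_70919 were at -1.56, 3.87, -5.82 and 2.71.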

How the results depend on the processing

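Of 744 lower and 651 higher genes outside CAZymes and listed transporters, leaving out 1 cellulose library in turn gave 620 to 782 and 606 to 650. Without scaling factors the counts were 541 and 825, with upper-quartile factors 638 and 768, with DESeq2 746 and 652, and in the 6 cellulose libraries alone 684 and 642. Without the fold threshold, 1596 genes were lower and 1565 higher, 46 HET, ankyrin and NACHT genes were higher (28 with it), and 81 central carbon and 64 amino acid genes were lower (43 and 39 with it). Leaving out 1 cellulose library gave 20 to 30 higher HET, ankyrin and NACHT genes, 34 to 48 lower central carbon genes and 35 to 44 lower amino acid genes. For the sulfur group, 18 genes were lower, with 16 to 23 over all settings. The interaction, recomputed under settings chosen after seeing the data, was below 0 in 1312 genes and above 0 in 937. Without scaling factors the counts were 512 and 2054. When 1 cellulose library was left out they were 1173 to 1352 and 879 to 943, and no sophorose library was left out. The cause of these changes was not tested. Of 533 recomputed interaction values of 41 genes, 7 were no longer called: BiP with upper-quartile factors, without scaling factors, without QM9414 cellulose replicate 3 and without Δxyr1 cellulose replicate 2, SCON-2 and aminopeptidase Y without scaling factors, and glutamine synthetase without Δxyr1 cellulose replicate 3. The fold changes of 289 named genes gave 4042 values under the alternatives, of which 0 changed direction and 65, from 31 genes, fell below the threshold.

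Same-numbered libraries of the strains did not deviate together (r = -0.084, 0.127 and -0.202), and a fit with the replicate block gave 745 lower and 636 higher genes. Genes under 5 CPM make up 158 of the lower and 142 of the higher genes and rest on few counts.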
